A study of Mus musculus with 20 samples.

Results

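The ADAMTS proteases are secreted metalloproteases that carry thrombospondin repeats and cut proteins of the extracellular matrix. The 8 genes described are Adamts1, Adamts2, Adamts4, Adamts5, Adamts7, Adamts10, Adamts12 and Adamts15, found by gene name among the 32285 genes of the deposited expression table. All 8 were in the table, and 7 of them reached 1 TPM (transcript counts scaled to a fixed total and corrected for transcript length) in at least 5 of the 20 libraries, the filter for testing. The exception was Adamts15. Another 11 ADAMTS enzymes in the table are given only as relatives.

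The RNA came from mouse cancer-associated fibroblasts (CAFs, the fibroblasts of the tumour stroma), primary cells that had been immortalised, after 32 h in 1 of 4 conditions, with 5 libraries each. One group had 0.2 mM glutamine and 25 uM EIPA, an amiloride analogue used to block macropinocytosis (the treatment protocol gives mM where the sample titles give uM). The second had 0.2 mM glutamine and the DMSO vehicle, the third 4 mM glutamine with DMSO and 25 pg/mL IL-1a, and the fourth 4 mM glutamine with DMSO alone. DMSO was present in all 4 groups. The labels name neither the genotype of the cells nor the number of lines, and do not say whether replicates were grown separately. The p-values therefore refer to the spread among these libraries, which may be technical.

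Enzymes of the family are made as inactive precursors, are cut by furin-like convertases, and are held to the matrix by their C-terminal repeats. ADAMTS1, ADAMTS4, ADAMTS5 and ADAMTS15 cut the large proteoglycans aggrecan and versican. ADAMTS2 removes the N-terminal propeptide of fibrillar procollagens, ADAMTS7 and ADAMTS12 cut cartilage oligomeric matrix protein, and ADAMTS10 binds fibrillin microfibrils. TIMP3 inhibits several of them.

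All 8 genes encode the zinc-binding site of the catalytic domain, which gives the family its protease activity. In the GENCODE M21 transcripts (GRCm38) the 36 bases of the site were found in frame in 39 of 21613 protein-coding genes, 18 of them ADAMTS genes and 20 ADAM genes. The sites are shown because they split the members by sequence. The capitals mark the codons of the 3 zinc-binding histidines, and each line reads 5′ to 3′ on the coding strand.
Adamts1: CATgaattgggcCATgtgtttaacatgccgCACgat
Adamts4: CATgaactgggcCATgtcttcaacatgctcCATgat
Adamts15: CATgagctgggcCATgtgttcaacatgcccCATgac
Adamts5: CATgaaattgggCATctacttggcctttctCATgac
Adamts2: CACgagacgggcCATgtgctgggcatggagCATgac
Adamts7: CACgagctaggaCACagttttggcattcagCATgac
Adamts12: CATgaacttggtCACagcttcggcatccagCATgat
Adamts10: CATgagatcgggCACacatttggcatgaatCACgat

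In each gene an intron interrupts these codons. The 8th codon of the site was AAC in 3 members, Adamts1, Adamts4 and Adamts15, and GGC in the other 5. Adamts4 and Adamts15 shared 32 of the 36 bases, and Adamts7 and Adamts12 shared 28. Adamts4 shared 21 with Adamts5, the other aggrecanase.

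Positions are those of GENCODE M21 on GRCm38 (mm10), counted from 1. Adamts1 (ENSMUSG00000022893, chr16:85793827-85803113) and Adamts5 (ENSMUSG00000022894, chr16:85856173-85901828) lie on the minus strand with 53059 bases between them. Adamts15 (ENSMUSG00000033453, chr9:30899155-30922452) is also on the minus strand. On the plus strand lie Adamts2 (ENSMUSG00000036545, chr11:50602084-50807573), Adamts4 (ENSMUSG00000006403, chr1:171250421-171260637), Adamts7 (ENSMUSG00000032363, chr9:90163069-90208071), Adamts10 (ENSMUSG00000024299, chr17:33524204-33553782) and Adamts12 (ENSMUSG00000047497, chr15:11064790-11349231).

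Of the 8 fibroblast markers examined, 7 averaged at least 1 TPM, Col1a1 at 1827 TPM, while Lum, a keratan sulfate proteoglycan, averaged 0.10 TPM. Mesothelial markers were expressed too, Wt1 at 123 and Msln at 89.2 TPM. Of the 4 leukocyte markers, Ptprc (0.0005 TPM) and Itgam (0.001) were near 0, while Cd14 (13.5) and Cd68 (3.64) were not. Of the 3 endothelial markers Kdr (4.95 TPM) was expressed and Pecam1 (0.0775) and Cdh5 (0.008) were near 0, and of the 3 mural markers Mcam (7.78) was expressed and Rgs5 (0.096) and Cspg4 (0.063) were near 0. Of the 4 epithelial markers Krt18 averaged 10.3 TPM and Cdh1 0.978, while Epcam (0.103) and Krt8 (0.206) were low. The 3 Schwann cell markers averaged under 1 TPM, with Sox10 at 0. Between 11749 and 12045 genes reached 1 TPM per library. At 4 mM glutamine 3 libraries stood apart (vehicle replicate 5, IL-1a replicates 1 and 5), with Ccn1, which encodes a secreted matrix protein, at 201 to 235 TPM against 379 to 599 TPM in the other 7, and results that rest on them are given also without them.

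Levels differed widely between the genes. With vehicle at 4 mM glutamine, Adamts1 was the highest at 59.6 ± 4.61 TPM (SD, n = 5), followed by Adamts5 (37.5 ± 2.45), Adamts2 (29.1 ± 3.66), Adamts10 (11.1 ± 0.994), Adamts4 (7.52 ± 0.335), Adamts7 (7.08 ± 1.08) and Adamts12 (1.84 ± 0.307). Adamts5 and Adamts2 overlapped in their ranges over libraries there, as did Adamts4 and Adamts7. Adamts12 was below 1 TPM in all 10 libraries at 0.2 mM glutamine and Adamts7 in 1 of them. Adamts15 was below 1 TPM in all 20 libraries and listed at 0 in 14, with a highest value of 0.09 TPM.

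**Figure D1:**
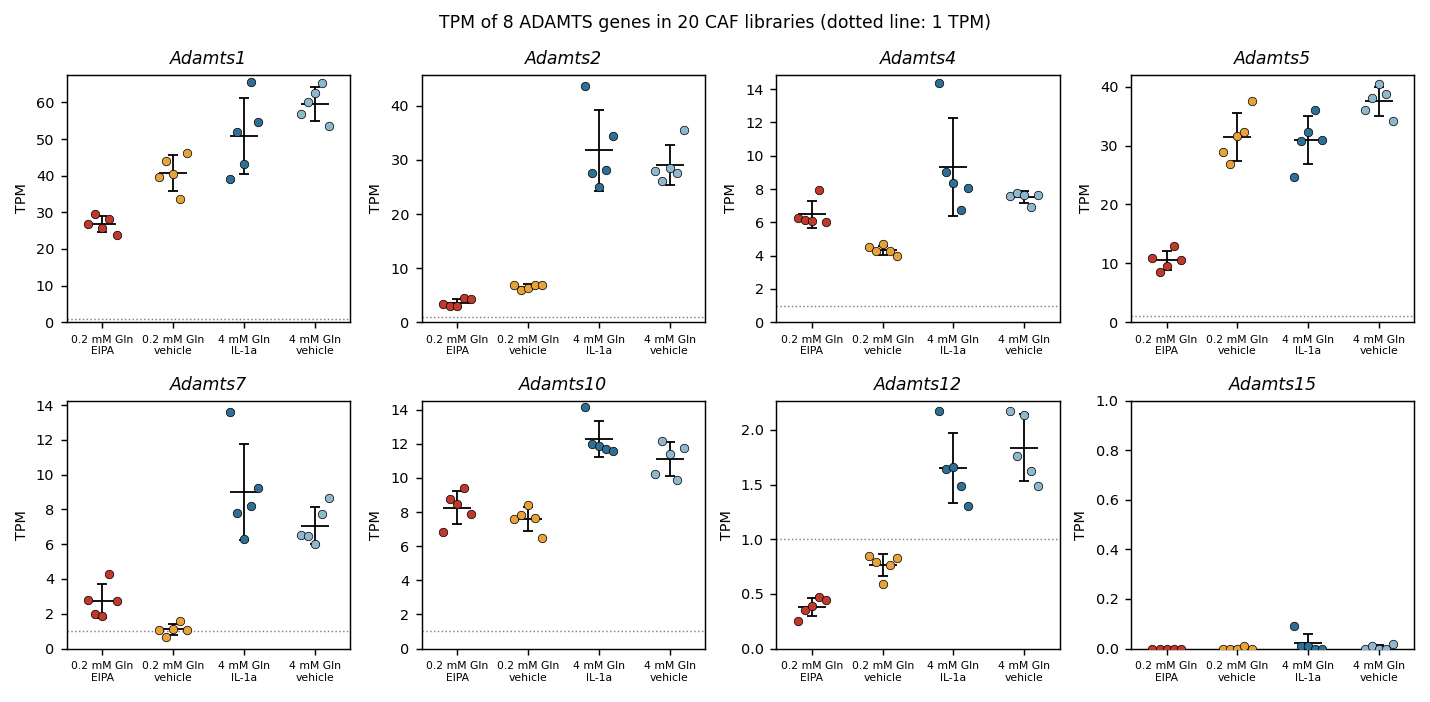
TPM (vertical axes, linear from 0) of each of the 8 genes in the 5 libraries of each group (points), with mean and SD (bars). Adamts5 sits between 8.55 and 12.91 TPM with EIPA and at 24.73 TPM or above in the other 15 libraries, while Adamts2 and Adamts7 are high in both groups at 4 mM glutamine.

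The order of the genes changed with the condition. Adamts2 was at the third place with vehicle at 4 mM glutamine, at the fourth with vehicle at 0.2 mM (6.60 ± 0.445 TPM, overlapping Adamts10 at 7.58 ± 0.711) and at the fifth with EIPA (3.60 ± 0.714 TPM, overlapping Adamts7). Adamts1 led in every group, without overlap with the next gene in the EIPA group and the 4 mM vehicle group, and with overlap in the other 2 groups. The TPM of the 8 genes summed to 58.8 ± 5.13 with EIPA, 92.6 ± 6.12 with vehicle at 0.2 mM, 146 ± 11.4 after IL-1a, and 154 ± 4.58 in its vehicle controls (SD, n = 5 each).

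**Figure D2:**
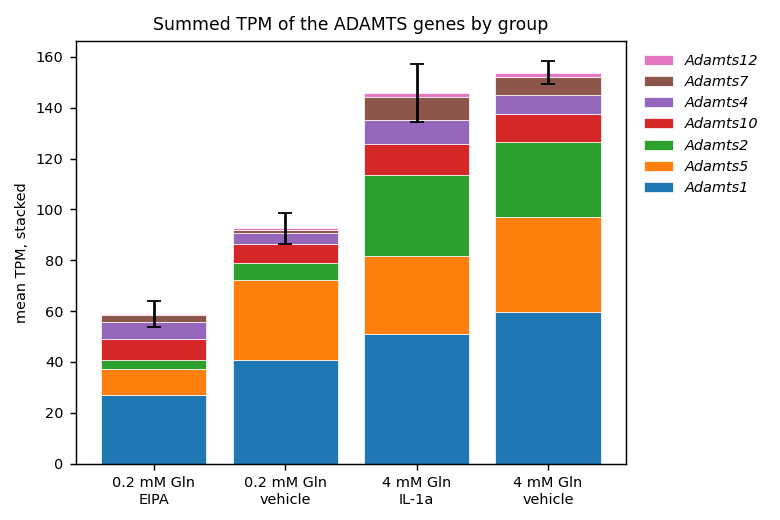
Mean TPM of 7 genes stacked by group (vertical axis from 0), with the SD of the summed TPM of all 8 as the error bar; Adamts15 is too low to be seen. The stack is lowest with EIPA at 58.8 TPM and highest with vehicle at 4 mM glutamine at 154 TPM.

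EIPA was set against vehicle at 0.2 mM glutamine to ask how this compound, used to block macropinocytosis, changes CAFs that are short of glutamine. Macropinocytosis itself was not measured here, so its block cannot be told apart from other effects of EIPA. The proteoglycan-cutting enzymes moved in opposite directions: Adamts5 and Adamts1 fell and Adamts4 rose. Adamts2, the procollagen N-proteinase, fell, and of the pair with mucin domains Adamts7 rose and Adamts12 fell. Differences are limma log2 fold changes of TPM + 1 with their SE, and a gene is said to rise or fall where the p adjusted over the 12350 tested genes was under 0.05. In bulk RNA, fewer cells that express a gene and less RNA per cell cannot be told apart.

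Adamts5, aggrecanase-2, had 10.88, 8.55, 9.59, 12.91 and 10.65 TPM with EIPA, against 28.92, 26.81, 31.65, 32.31 and 37.51 TPM with vehicle. Every EIPA library was below every vehicle library. The log2 fold change was -1.50 ± 0.10 (limma adjusted p = 3.4e-10). Its share of the summed TPM of the 8 genes was 17.9% ± 1.93 with EIPA and 33.9% ± 3.05 with vehicle (SD, n = 5 each).

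Adamts1, a versican-cutting enzyme and the neighbour of Adamts5 on chromosome 16, had 26.88, 29.59, 25.63, 28.20 and 23.92 TPM with EIPA, against 39.77, 43.98, 40.37, 33.52 and 46.14 TPM with vehicle. The groups did not overlap, and the log2 fold change was -0.58 ± 0.11 (limma adjusted p = 1.7e-04). The fall of Adamts5 was larger, so that Adamts5 stood at 0.394 ± 0.0675 of Adamts1 with EIPA and at 0.780 ± 0.129 with vehicle (ratio within a library, SD, n = 5 each).

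Adamts4, aggrecanase-1, had 6.24, 6.16, 6.10, 7.92 and 6.01 TPM with EIPA, against 4.51, 4.25, 4.68, 4.27 and 3.96 TPM with vehicle. All 5 EIPA libraries were higher, with replicate 4 above the other 4, and the log2 fold change was 0.48 ± 0.12 (limma adjusted p = 0.0029). The ratio of Adamts4 to Adamts5 within a library was 0.622 ± 0.0625 with EIPA and 0.140 ± 0.0218 with vehicle. Adamts15, of the same enzyme class, was listed at 0 in all 5 EIPA libraries and at 0.01 TPM or less with vehicle.

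Adamts2 had 3.28, 3.05, 2.95, 4.51 and 4.22 TPM with EIPA, against 6.89, 6, 6.24, 6.96 and 6.90 TPM with vehicle. The groups did not overlap, and the log2 fold change was -0.73 ± 0.13 (limma adjusted p = 6.7e-05). Adamts7 had 2.80, 2.00, 1.86, 4.29 and 2.73 TPM with EIPA, against 1.06, 0.68, 1.13, 1.61 and 1.05 TPM with vehicle. Again no value was shared, and Adamts7 rose by 0.81 ± 0.17 (log2, limma adjusted p = 6.5e-04), or by 1.22 with a pseudocount of 0.1 in place of 1, at levels near the filter where the added 1 TPM shrinks the change. Adamts12 was at 0.25 to 0.47 TPM with EIPA and 0.59 to 0.85 TPM with vehicle (-0.35 ± 0.10, limma adjusted p = 0.0063), below 1 TPM on both sides, and its difference was -0.86 with a pseudocount of 0.1. Adamts10, the fibrillin-binding member, ranged from 6.80 to 9.39 TPM with EIPA and from 6.45 to 8.41 TPM with vehicle, a difference of 0.11 with a 95% interval from -0.07 to 0.28 (limma adjusted p = 0.32).

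Over the tested members, 2 of 7 rose and 4 fell, in a comparison where 48.5% of all tested genes were called, 27.4% higher and 21.1% lower. The median log2 fold change of the 7 was -0.35, against 0.02 over all tested genes. The groups did not overlap in 6 of the 8 genes, and in 34.6% of all tested genes. Mitochondrially encoded mRNAs took 5.69% ± 0.63 of TPM with EIPA and 8.87% ± 0.276 with vehicle, and with those genes left out the same 6 of the 7 were called. The summed level of the 4 leukocyte markers was 21.8 to 24.8 TPM with EIPA and 7.84 to 10.7 TPM with vehicle, carried by Cd14 and Cd68, while Ptprc and Itgam were near 0. That of the 4 epithelial markers was 10.1 to 12.1 TPM with EIPA and 4.39 to 6.16 TPM with vehicle, and that of the 3 mural markers 3.03 to 4.27 and 7.05 to 9.93 TPM. The 8 fibroblast markers summed to 1890 to 2194 TPM with EIPA and 3203 to 3790 TPM with vehicle, sums held mostly by Vim, Col1a1 and Col1a2. Of the same list Pdgfra (1.14 ± 0.18, limma adjusted p = 2.8e-05) and Pdgfrb (0.39 ± 0.09, limma adjusted p = 0.0019) rose, and Thy1 did not pass the test (-0.12 ± 0.18, limma adjusted p = 0.61). The 4 mesothelial markers summed to 179 to 280 TPM with EIPA and 298 to 427 TPM with vehicle, and the part of these shifts in the result was not tested.

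**Figure D3:**
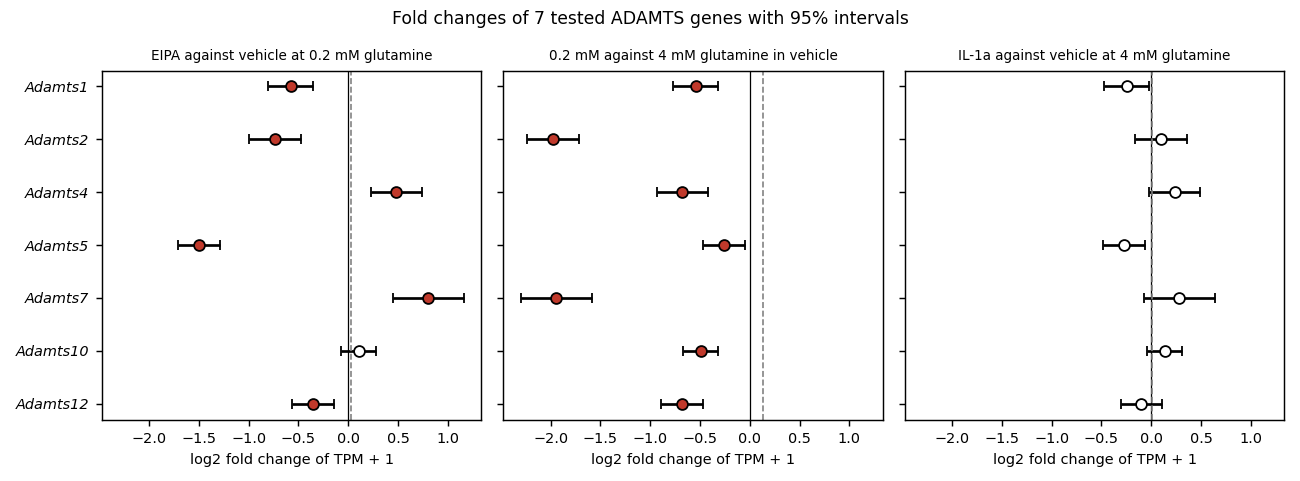
Log2 fold change of TPM + 1 (horizontal axes) of the 7 tested genes in the 3 comparisons, with 95% intervals; filled points were called and dashed lines mark the median of all tested genes. With EIPA the 7 genes spread from -1.50 to 0.81, between the glutamine levels all 7 are below 0, and with IL-1a no gene was called.

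Low was set against high glutamine in vehicle cells to ask what glutamine shortage alone does. Adamts2 and Adamts7 fell most, and every other tested member fell by less. This comparison shares the 5 vehicle libraries at 0.2 mM with the EIPA comparison, where they were the control, so the 2 comparisons are not independent.

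Adamts2 had 6.89, 6, 6.24, 6.96 and 6.90 TPM at 0.2 mM, against 28.03, 26.05, 28.43, 27.59 and 35.46 TPM at 4 mM. The 4 mM libraries were all above 26 TPM and the 0.2 mM libraries all below 7 TPM. The log2 fold change was -1.98 ± 0.13 (limma adjusted p = 1.4e-11). Adamts2 made up 7.15% ± 0.642 of the summed TPM of the 8 genes at 0.2 mM and 18.9% ± 2.49 at 4 mM (SD, n = 5 each).

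Adamts7 had 1.06, 0.68, 1.13, 1.61 and 1.05 TPM at 0.2 mM, against 6.52, 6.50, 6.01, 7.71 and 8.64 TPM at 4 mM. No values overlapped, and the log2 fold change was -1.94 ± 0.17 (limma adjusted p = 2.4e-09). With a pseudocount of 0.1 in place of 1 the Adamts7 difference was -2.60, a larger fall than the -2.12 of Adamts2 in that setting. Adamts12, its closest relative by the zinc-binding site, had 0.59 to 0.85 TPM at 0.2 mM and 1.49 to 2.17 TPM at 4 mM (-0.68 ± 0.10, limma adjusted p = 3.6e-06). Adamts12 passed the filter only through the 4 mM libraries, so the filter itself favoured a lower level at 0.2 mM. With a pseudocount of 0.1 its difference was -1.16.

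Of the proteoglycan-cutting enzymes, Adamts1 fell to 33.52 to 46.14 TPM at 0.2 mM, against 56.78, 60, 62.48, 65.35 and 53.63 TPM at 4 mM (-0.54 ± 0.11, limma adjusted p = 1.3e-04). Adamts4 had 3.96 to 4.68 TPM at 0.2 mM and 7.59, 7.76, 7.65, 6.93 and 7.67 TPM at 4 mM, without overlap (-0.68 ± 0.12, limma adjusted p = 5.1e-05). Adamts5 had 26.81 to 37.51 TPM at 0.2 mM, overlapping 36.10, 38.14, 40.47, 38.81 and 34.17 TPM at 4 mM (-0.25 ± 0.10, limma adjusted p = 0.029). Its call was lost when any 1 of 5 libraries was left out (vehicle replicates 1 and 2 at 0.2 mM, and 2, 3 and 4 at 4 mM, limma adjusted p = 0.051 to 0.092) and without a filter on low values (0.052). Adamts10 fell to 6.45 to 8.41 TPM at 0.2 mM, against 9.88 to 12.17 TPM at 4 mM (-0.49 ± 0.09, limma adjusted p = 2.5e-05).

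All 7 tested members fell, or 6 of 6 without Adamts12, where 73.3% of all tested genes were called and 27.9% were called lower. The groups were without overlap, and lower at 0.2 mM, in 6 members and in 22.7% of all tested genes. Adamts12, whose fall the filter favoured, is among these 6. The median of all tested genes was higher by 0.14 (log2) at 0.2 mM, and was 0.01 under median-of-ratios scaling. Relative to the median of 0.14, the log2 fold changes were -2.12 for Adamts2, -2.08 for Adamts7, -0.82 for Adamts12, -0.81 for Adamts4, -0.68 for Adamts1, -0.63 for Adamts10 and -0.39 for Adamts5. This order depends on the pseudocount of 1, which shrinks changes most at low levels. With 0.1 the plain log2 fold change was larger for Adamts7 (-2.60) than for Adamts2 (-2.12), and larger for Adamts12 (-1.16) than for Adamts4 (-0.78). Without the 3 libraries that stood apart, 7 of 7 were again called. The summed fibroblast markers were at 3203 to 3790 TPM at 0.2 mM and 8365 to 9136 TPM at 4 mM, and the mesothelial ones at 298 to 427 and 524 to 908 TPM. Leukocyte markers summed to 7.84 to 10.7 TPM at 0.2 mM and 14.2 to 18.9 TPM at 4 mM, epithelial ones to 4.39 to 6.16 and 12.7 to 17.4 TPM, and endothelial ones to 6.12 to 10.2 and 2.57 to 3.21 TPM. The part of these shifts in the result was not tested.

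The promoters of 3 of the 8 genes, each lower with EIPA and at 0.2 mM glutamine, were among the RefSeq promoters used here, which run from 250 bases before to 50 after the start on GRCm38.p6. They are shown because no other member had an entry there. Adamts5, which also fell in both comparisons, had none, so the 3 are not a set chosen by their pattern. Capitals mark GC boxes (GGGCGG, either strand).
Adamts1, minus strand, chr16:85803064-85803363: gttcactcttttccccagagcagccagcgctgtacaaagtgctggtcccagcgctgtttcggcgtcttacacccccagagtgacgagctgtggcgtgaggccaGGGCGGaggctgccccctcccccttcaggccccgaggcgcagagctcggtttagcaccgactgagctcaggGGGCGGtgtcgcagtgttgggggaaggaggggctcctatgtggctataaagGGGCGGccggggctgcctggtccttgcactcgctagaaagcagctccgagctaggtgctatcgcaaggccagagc
Adamts2, plus strand, chr11:50601835-50602134: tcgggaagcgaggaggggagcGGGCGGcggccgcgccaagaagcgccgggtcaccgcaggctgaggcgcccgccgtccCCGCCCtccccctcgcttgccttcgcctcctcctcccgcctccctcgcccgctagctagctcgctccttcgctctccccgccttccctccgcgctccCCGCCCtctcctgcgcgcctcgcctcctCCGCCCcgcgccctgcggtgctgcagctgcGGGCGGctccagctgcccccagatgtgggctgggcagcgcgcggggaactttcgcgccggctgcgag
Adamts12, plus strand, chr15:11064523-11064822: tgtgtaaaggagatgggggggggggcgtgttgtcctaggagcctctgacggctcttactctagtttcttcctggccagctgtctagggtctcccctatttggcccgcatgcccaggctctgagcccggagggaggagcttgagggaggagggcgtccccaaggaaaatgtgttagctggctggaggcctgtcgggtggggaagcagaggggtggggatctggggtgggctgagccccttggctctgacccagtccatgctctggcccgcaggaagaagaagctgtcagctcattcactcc

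The GC box was found 3 times in the Adamts1 promoter, 5 times in that of Adamts2 and 0 times in that of Adamts12, and in 35.7% of all 32851 promoters of this length. The letters of an AP-1 site (TGANTCA, in 7.81% of promoters), a TEAD site (GGAATG, 14.7%) and a cyclic AMP response element (TGACGTCA, 1.79%), sought on both strands, were in none of the 3 windows. The 3 promoters held 64.7%, 77.3% and 62.0% G and C in the same order, against a median of 52.7% over all promoters.

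IL-1a, a cytokine that drives inflammatory CAFs, was set against vehicle at 4 mM glutamine to ask for its effect in well-fed cells. No member passed the test: limma called 0 of 7, where 0.283% of all tested genes were called. An unadjusted p under 0.05 was found for 2 of 7, a level whose share over all tested genes was not computed. The groups overlapped in all 8 genes, where 1.38% of all tested genes had no overlap.

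The 2 genes with the lower p were Adamts5 and Adamts1. Adamts5 had 24.73, 30.84, 32.29, 36.06 and 30.91 TPM with IL-1a, against 36.10, 38.14, 40.47, 38.81 and 34.17 TPM with vehicle (-0.28 ± 0.10, unadjusted p = 0.013, limma adjusted p = 0.56). Only IL-1a replicate 4 reached into the vehicle range. Adamts1 had 39.03, 51.96, 43.15, 65.53 and 54.61 TPM with IL-1a, against 56.78, 60, 62.48, 65.35 and 53.63 TPM with vehicle (-0.25 ± 0.11, unadjusted p = 0.034, limma adjusted p = 0.74).

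Adamts4 had 14.36, 9.01, 8.37, 6.76 and 8.07 TPM with IL-1a, against 7.59, 7.76, 7.65, 6.93 and 7.67 TPM with vehicle (0.24 ± 0.12, limma adjusted p = 0.89). Its IL-1a values were spread more widely, with replicate 1 far above the rest. The same library held the highest Adamts7 (13.60 TPM), Adamts2 (43.73 TPM) and Adamts10 (14.13 TPM) of all 20. The 95% intervals of the 7 log2 fold changes lay between -0.49 and 0.64. Adamts15 was at 0 to 0.09 TPM with IL-1a and 0 to 0.02 TPM with vehicle.

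The 3 libraries that stood apart by Ccn1 were also apart in Adamts2, at 34.34 to 43.73 TPM against 24.92 to 28.43 TPM in the other 7 at 4 mM glutamine, and in Adamts7, at 8.64 to 13.60 against 6.01 to 8.18 TPM. Every other member overlapped between these sets, such as Adamts1 at 39.03 to 54.61 against 43.15 to 65.53 TPM. The share of all tested genes apart in the same libraries was not computed. Without these 3 libraries limma again called 0 of the 7 members with IL-1a, and the Adamts2 difference of 0.10 ± 0.13 turned to -0.03.

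The EIPA response and the IL-1a response share no libraries and were tested against each other, although they were measured at different glutamine levels. They differed for Adamts5 (-1.22 ± 0.14, limma adjusted p = 3.1e-06) and Adamts2 (-0.84 ± 0.18, limma adjusted p = 0.0013), 2 of 7 members where 28.9% of all tested genes differed. For Adamts1 (-0.33 ± 0.15, limma adjusted p = 0.11), Adamts4 (0.25 ± 0.18, limma adjusted p = 0.31), Adamts7 (0.52 ± 0.24, limma adjusted p = 0.11), Adamts10 (-0.03 ± 0.12, limma adjusted p = 0.88) and Adamts12 (-0.26 ± 0.14, limma adjusted p = 0.19) the difference did not pass the test. Without IL-1a replicate 1, where Adamts4 and Adamts7 were high, 5 members passed: Adamts1, Adamts4 (0.40, limma adjusted p = 0.013) and Adamts7 (0.67, limma adjusted p = 0.026) joined the first 2. With a pseudocount of 0.1, Adamts7 (0.91, limma adjusted p = 0.037) and Adamts12 (-0.71, limma adjusted p = 0.046) passed, 4 members in all.

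Of the 11 relatives in the enzyme family, 4 passed the filter, and between the glutamine levels 3 fell and 1 rose. Over all tested genes 73.3% were called there, 27.9% lower, and with EIPA 48.5% were called, 21.1% lower. Adamts3 and Adamts14 are, like Adamts2, procollagen N-proteinases, and both fell. Adamts3 was at 0.820 ± 0.274 TPM at 0.2 mM and 3.73 ± 1.07 TPM at 4 mM (-1.36 ± 0.18, limma adjusted p = 7.3e-07), and Adamts14 at 2.05 ± 0.302 and 3.90 ± 0.265 TPM (-0.69 ± 0.15, limma adjusted p = 2.9e-04; SD, n = 5 each). Adamts3 was below 1 TPM in 4 of the 5 vehicle libraries at 0.2 mM and all 5 with EIPA, and passed the filter through the 4 mM libraries, which favoured its fall. Adamts9, which cuts versican, was at 5.91 ± 1.1 TPM at 0.2 mM and 18.5 ± 2.38 TPM at 4 mM (-1.50 ± 0.15, limma adjusted p = 1.1e-08). Adamts6, the closest relative of Adamts10, rose to 5.86 ± 0.139 TPM at 0.2 mM, against 3.83 ± 0.269 TPM at 4 mM (0.51 ± 0.07, limma adjusted p = 1.1e-06), where Adamts10 fell. With EIPA 2 of the 4 fell, Adamts3 to 0.262 ± 0.0390 TPM (-0.52 ± 0.18, limma adjusted p = 0.022) and Adamts6 to 5.10 ± 0.393 TPM (-0.17 ± 0.07, limma adjusted p = 0.045), and with a pseudocount of 0.1 in place of 1 the count was 1.

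The ADAMTS-like genes encode related glycoproteins without a protease domain, and 5 of the 7 in the table passed the filter. With EIPA 2 of the 5 fell, where 21.1% of all tested genes were called lower. Between the glutamine levels 1 rose and 2 fell, where 73.3% of all tested genes were called, 27.9% lower. One of these 2, Adamtsl1, was below 1 TPM in all 10 libraries at 0.2 mM and passed the filter only through the 4 mM libraries, which favoured its fall. The count that fell with EIPA was 3 with a pseudocount of 0.1 and 4 without the 3 libraries that stood apart, which enter the shared estimate of the spread. Adamtsl4, which binds fibrillin microfibrils, was at 1.35 ± 0.311 TPM with EIPA and 2.97 ± 0.343 TPM with vehicle (-0.76 ± 0.13, limma adjusted p = 5.0e-05), and lower at 0.2 mM than the 14.4 ± 2.53 TPM at 4 mM (-1.95 ± 0.13, limma adjusted p = 2.0e-11). Adamtsl5 was at 20.96 ± 1.1 TPM with EIPA and 33.4 ± 0.784 TPM with vehicle (-0.65 ± 0.10, limma adjusted p = 3.5e-05), and rose at 0.2 mM over the 15.0 ± 1.89 TPM at 4 mM (1.11 ± 0.10, limma adjusted p = 5.3e-09).

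**Figure D4:**
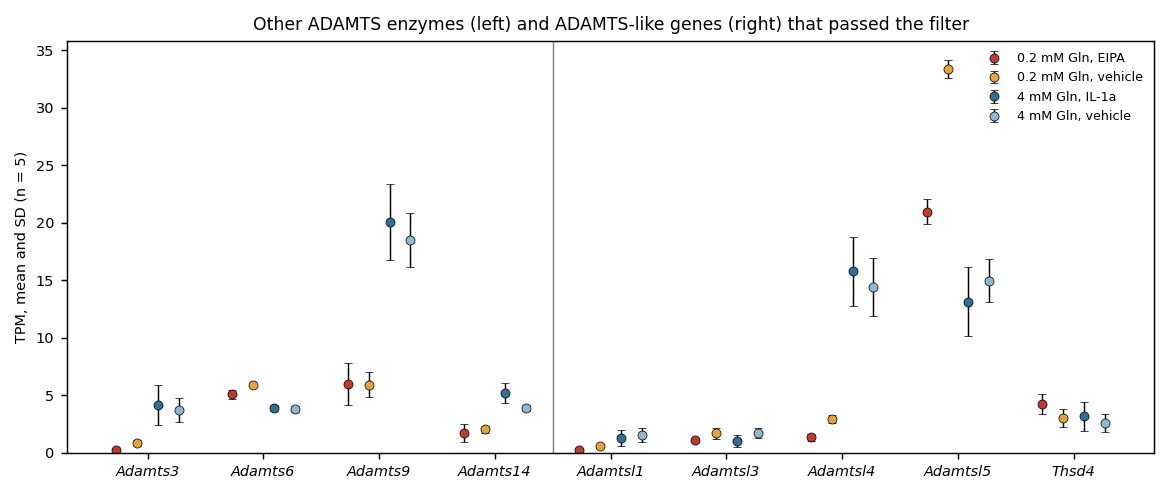
Mean TPM and SD (vertical axis from 0, n = 5) of the 4 other ADAMTS enzymes and 5 ADAMTS-like genes that passed the filter, by group. Adamts9 and Adamtsl4 are lower at 0.2 mM than at 4 mM glutamine in vehicle cells, and Adamtsl5 is higher there, at 33.4 against 15.0 TPM.

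Substrates of the enzymes were measured in the same libraries. Of the 5 tested procollagen substrates all 5 fell with EIPA (median log2 fold change -1.36) and all 5 fell at 0.2 mM (-1.94), where the medians of all tested genes were 0.02 and 0.14. Over all tested genes 21.1% were called lower with EIPA and 27.9% at 0.2 mM. Col1a1, a chain of type I collagen, was at 262 ± 32.7 TPM with EIPA, 675 ± 82.8 TPM with vehicle at 0.2 mM and 3288 ± 269.8 TPM with vehicle at 4 mM. Col3a1, the chain of type III collagen, was at 40.0 ± 4.30 TPM with EIPA and 215 ± 37.7 TPM with vehicle (-2.39 ± 0.18, limma adjusted p = 1.2e-09).

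Of the 9 proteoglycans 4 were tested, and 3 fell with EIPA and all 4 at 0.2 mM. Of all tested genes, 21.1% and 27.9% were called lower in these comparisons. Fmod, fibromodulin, one of the 4, was below 1 TPM in all 10 libraries at 0.2 mM and passed the filter only through those at 4 mM, so that 3 of 3 fell at 0.2 mM without it. Vcan, versican, was at 3.53 ± 0.600 TPM with EIPA and 7.17 ± 1.05 TPM with vehicle (-0.85 ± 0.10, limma adjusted p = 1.1e-06), and lower at 0.2 mM than the 33.0 ± 1.89 TPM at 4 mM (-2.06 ± 0.10, limma adjusted p = 4.7e-13). Dcn, decorin, was at 26.9 ± 6.81 TPM with EIPA and 51.5 ± 12.5 TPM with vehicle (-0.91 ± 0.33, limma adjusted p = 0.028). Acan, aggrecan, after which the aggrecanases are named, averaged 0.01 TPM or less in every group, and Comp, cut by ADAMTS7 and ADAMTS12, 0.174 TPM or less.

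Of the 10 tested other substrates and partners, 8 fell with EIPA and 8 at 0.2 mM glutamine. Of all tested genes, 21.1% and 27.9% were called lower in these comparisons. Fbn1, the fibrillin to which ADAMTS10 binds, fell with EIPA (-1.02 ± 0.07, limma adjusted p = 4.7e-10) and at 0.2 mM (-0.54 ± 0.07, limma adjusted p = 8.4e-07). The largest changes were in Efemp2, fibulin-4, with EIPA (-1.20 ± 0.10, limma adjusted p = 3.2e-09) and Thbs1, thrombospondin-1, at 0.2 mM (-2.16 ± 0.21, limma adjusted p = 9.8e-09). Fbln1, fibulin-1, a cofactor of ADAMTS1, did not pass the test with EIPA (-0.06 ± 0.14, limma adjusted p = 0.77) and fell at 0.2 mM (-0.48 ± 0.14, limma adjusted p = 0.0044).

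Of the 6 tested inhibitors and clearance genes, 3 fell with EIPA and 5 at 0.2 mM and none rose, where 48.5% and 73.3% of all tested genes were called in either direction. Timp3, an inhibitor of ADAMTS4 and ADAMTS5, was at 219.9 ± 47.2 TPM with EIPA and 287 ± 11.6 TPM with vehicle (-0.41 ± 0.10, limma adjusted p = 0.0018), and lower at 0.2 mM than the 515 ± 26.3 TPM at 4 mM (-0.84 ± 0.10, limma adjusted p = 1.4e-07). Timp1, best known as an inhibitor of matrix metalloproteinases, was at 49.2 ± 9.94 TPM with EIPA and 105 ± 9.44 TPM with vehicle (-1.09 ± 0.12, limma adjusted p = 4.0e-07). Lrp1, an endocytic receptor that clears ADAMTS4 and ADAMTS5, did not pass the test with EIPA (-0.11 ± 0.11, limma adjusted p = 0.46) and fell at 0.2 mM (-0.59 ± 0.11, limma adjusted p = 7.1e-05). Sdc4, syndecan-4, which controls ADAMTS5 activation in mouse cartilage, fell with EIPA (-0.60 ± 0.07, limma adjusted p = 1.1e-06).

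Of the 5 tested genes of activation and modification, 2 rose and 1 fell with EIPA. Of all tested genes, 27.4% were called higher and 21.1% lower there, 48.5% in all. Furin, the convertase that cuts the precursors, was at 44.6 ± 3.86 TPM with EIPA and 33.8 ± 1.47 TPM with vehicle (0.39 ± 0.07, limma adjusted p = 6.3e-05). B3glct, which adds a glucose to the fucose on thrombospondin repeats, rose (0.22 ± 0.08, limma adjusted p = 0.036), and Pofut2, which adds that fucose, fell (-0.11 ± 0.05, limma adjusted p = 0.048). Median-of-ratios scaling, quantile normalisation or leaving out mitochondrially encoded genes left 1 rising gene. At 0.2 mM glutamine 2 rose and 3 fell, where 73.3% of all tested genes were called. Pcsk7, another convertase, was highest (0.51 ± 0.07, limma adjusted p = 8.1e-07) and B3glct lowest (-0.64 ± 0.08, limma adjusted p = 5.4e-07). Those same 3 settings, and leaving out the 3 libraries that stood apart, again left 1 rising gene.

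With IL-1a, limma called 0 of the 39 tested genes of all these lists, the relatives included, where 0.283% of all tested genes were called. An unadjusted p under 0.05 was found for 10 of the 39. The share of all tested genes at that unadjusted level was not computed, so nothing is read from this count. Vcan (0.47 ± 0.10, limma adjusted p = 0.052) and Fbln5, fibulin-5 (-0.56 ± 0.12, limma adjusted p = 0.052), were close to the threshold. Median-of-ratios scaling or quantile normalisation called 1 proteoglycan higher, and leaving out mitochondrially encoded genes called 1 of the other substrates and partners lower.

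**Figure D5:**
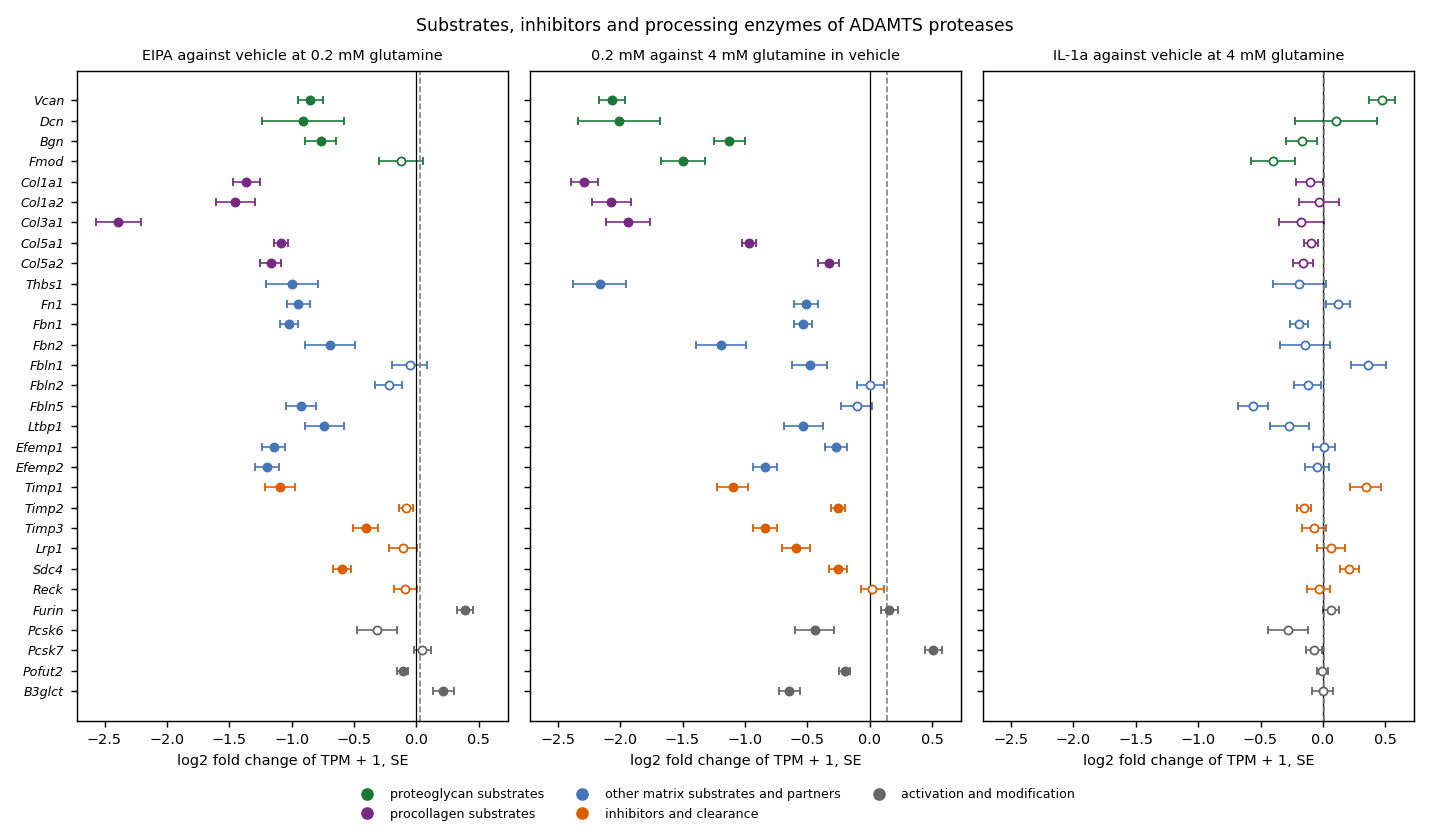
Log2 fold change of TPM + 1 with SE (horizontal axes) of the tested substrates, inhibitors and processing genes in the 3 comparisons; filled points were called and dashed lines mark the median of all tested genes. With EIPA the 5 procollagens lie between -2.39 and -1.08, and Furin is at 0.39.

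The genes with the pattern most like each member over the 20 libraries were sought outside these lists among 10007 genes with a mean of at least 5 TPM, by the root mean square difference of log2(TPM + 1) after each gene was centred on its own mean. For Adamts2 the nearest were Frmd4b (0.13) and Col6a1 (0.17), where Adamts2 itself had an SD of 1.27 over the libraries. For Adamts5, with an SD of 0.73, they were Lbh (0.17) and Dipk2a (0.18). For Adamts7, with an SD of 0.96, they were Cdh11 (0.20) and Pstpip1 (0.21). The nearest to Adamts1 was Pwwp3b (0.16), to Adamts4 Tnfrsf1a (0.13), to Adamts10 Dus3l (0.12) and to Adamts12 Ldlrad4 (0.12), for members with SDs of 0.29 to 0.46. These are descriptions over libraries that share 4 groups.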

How the data were processed

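The deposited values are TPM that the authors made for each of the 20 libraries, with RSEM on mm10 per the submitters' processing notes, which carry no version. Which aligner and which gene annotation were used is not given in the sources used here. TPM keep no depth, so the depth of each library is unknown and no counting interval was computed. Per the labels' protocols, polyadenylated RNA was sequenced from both ends.

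A gene was tested where at least 5 libraries reached 1 TPM, which left 12350 of 32285 genes. limma 3.58.1 (R 4.3.3) was fitted to log2(TPM + 1) of the 4 groups with an intensity trend, and the Benjamini-Hochberg adjustment took in all 12350 genes, with a threshold of 0.05. The script was tested on simulated data. TPM are given with the SD and log2 fold changes with the SE. Named are all 8 members, the listed genes called with the largest change in each direction or tied to a member by role, and the 1 or 2 genes most like each tested member. The members and lists were chosen with earlier results of these data known. All 8 IDs matched GENCODE M21 under the same symbol, and 3 matched a RefSeq promoter. The alternatives were another pseudocount, other filters and scalings, other fits, and leaving out libraries.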

Additional observations from a re-analysis of the deposited data

Results flagged for a closer look

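Among 64 combinations of a gene of the family and a group of 5 libraries, 8 held a library whose gap to its nearest neighbour exceeded the 95% limit of Dixon's test (0.71 of the range). Chance gives about 1 in 20. Of the members, Adamts2 was at 35.46 TPM in 4 mM vehicle replicate 5, against 26.05 to 28.43 TPM in the other 4. Adamts10 was at 14.13 TPM in IL-1a replicate 1, against 11.57 to 12.01 TPM. Both of these libraries are among the 3 that stood apart in Ccn1. Adamts4 was at 7.92 TPM in EIPA replicate 4, against 6.01 to 6.24 TPM, and at 6.93 TPM in 4 mM vehicle replicate 4, against 7.59 to 7.76 TPM.

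Of the relatives, Adamtsl1 was at 2.45 TPM in IL-1a replicate 5, against 0.82 to 1.26 TPM. That library too is among those that stood apart in Ccn1. Adamtsl4 was at 2.38 TPM in 0.2 mM vehicle replicate 3, against 3.01 to 3.26 TPM. Adamtsl5 was at 32.01 TPM in 0.2 mM vehicle replicate 1, against 33.43 to 33.95 TPM, and Adamts6 at 5.62 TPM in 0.2 mM vehicle replicate 5, against 5.88 to 5.98 TPM.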

How the results depend on the processing

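Over the alternatives run, 589 of the 608 member fold changes kept their direction and their side of the threshold. The number of members called stayed at 6 for EIPA (4 of 5 tested at a mean of at least 5 TPM), at 0 for IL-1a, and at 6 or 7 between the glutamine levels (5 of 5 at a mean of at least 5 TPM). For the EIPA response minus the IL-1a response it was 2, but 4 with a pseudocount of 0.1 and 4 without the 3 libraries of lowest Ccn1, an alternative chosen after seeing the data. Leaving out 1 library at a time gave 2 to 5 there. In the fit of only the groups compared, 19 genes were called with IL-1a in place of 35. Of the member values, 6 changed sign, none of them called. Adamts2 with IL-1a ran from -0.0176 (without IL-1a replicate 1) to 0.179 when 1 library was left out and was -0.0321 without the 3 libraries, and the Adamts10 difference between responses ran from -0.0789 to 0.0309. The cause was not tested.

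The labels do not say that a replicate number marks a shared culture or day, so the libraries were not taken as paired. The correlation of same-numbered libraries, after removal of group means, exceeded 0.1 in 4, 4 and 2 of the 5 pairs for EIPA, IL-1a and glutamine. It exceeded the correlation with every other-numbered library in 4, 2 and 4 of the 5. The correlation of same-numbered libraries ran from 0.06 to 0.32 for EIPA, from -0.28 (replicate 1) to 0.60 for IL-1a and from 0.05 to 0.17 for glutamine. These values do not settle whether the libraries share a replicate factor, and a fit with replicate number as a block was also run. With the replicate block, 6305, 39 and 9230 genes were called in these comparisons, and 6, 0 and 7 members. Of the listed genes with EIPA, 1 other ADAMTS enzyme fell under the block in place of 2, 3 ADAMTS-like genes fell and 1 rose in place of 2 and 0, and 9 other substrates and partners fell in place of 8; with IL-1a 1 of those was called lower in place of 0. With depth unknown, values of Adamts12 and Adamts15 may rest on few reads.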
